A study of Mus musculus with 12 samples.

Results

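The 10 genes described here encode the enzymes that make serine from a glycolytic intermediate and pass its one-carbon unit to folate. They were taken by gene name from a table of 56748 mouse genes: Phgdh, Psat1, Psph, Shmt1, Shmt2, Mthfd1, Mthfd2, Mthfd1l, Mthfd2l and Gldc. Pyruvate kinase M2 (PKM2) is one of the splice products of Pkm and catalyses the last step of glycolysis. The study removed PKM2 from rod photoreceptors and sequenced polyribosome-bound RNA from rods (Rod-TRAP, called rods here) and total RNA of retinal lysate (input, called retina here). In Rod-TRAP, Cre recombinase places an HA epitope on a ribosomal protein in rods, and an antibody to HA pulls those ribosomes down with their mRNA. There were 12 libraries, 3 in each of 4 groups.

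Every mouse had Ribo-Tag on both alleles and carried i75-Rod-Cre, which is driven by the rhodopsin promoter. Control mice (RiboTag;Pkm2fl/+;i75-Rod-Cre, the Pkm2Rodhet animals designated WT) had 1 floxed Pkm2 allele, and Pkm2Rodko mice (RiboTag;Pkm2fl/fl;i75-Rod-Cre) had 2, so the controls were not free of Cre or of a floxed allele. The series description gives an age of 2 weeks and the methods give 2 months. Tissue was frozen after cycloheximide perfusion. Neither the labels nor the methods say that the 3 libraries of a group came from separate animals, so each p-value measures the spread between these libraries, which may be technical. In bulk RNA, fewer cells of a type and less RNA per cell cannot be told apart. Rods and retina here differ in the kind of RNA as well as in cells, and the retina lysate contains the rods. Cell type, ribosome binding and the pulldown thus cannot be told apart in differences between the fractions.

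As background, serine synthesis branches from glycolysis at 3-phosphoglycerate, upstream of pyruvate kinase. PHGDH, PSAT1 and PSPH act in turn, after which serine hydroxymethyltransferases split serine into glycine and a one-carbon unit on folate. The MTHFD enzymes interconvert these folate units in the cytosol and in mitochondria for purine, thymidylate and methionine synthesis, and glycine cleavage feeds the same pool. In the retina, serine synthesis is well known as a function of Müller glia, which supply neighbouring neurons.

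The promoters of the 3 serine synthesis genes are shown because Phgdh and Psat1 were low and Psph was not low in rods, as the values below show. The windows run from 250 bases before to 50 after the start in RefSeq (GRCm38.p6, all on the minus strand) and are printed 5′ to 3′ along the gene. Capitals mark CCAAT, the NF-Y box, or TAATCC, the core letters of the photoreceptor factor CRX, on either strand. The windows are chr3:98339920-98340219 for Phgdh, chr19:15925010-15925309 for the first of the Psat1 windows and chr5:129787204-129787503 for Psph.
Phgdh: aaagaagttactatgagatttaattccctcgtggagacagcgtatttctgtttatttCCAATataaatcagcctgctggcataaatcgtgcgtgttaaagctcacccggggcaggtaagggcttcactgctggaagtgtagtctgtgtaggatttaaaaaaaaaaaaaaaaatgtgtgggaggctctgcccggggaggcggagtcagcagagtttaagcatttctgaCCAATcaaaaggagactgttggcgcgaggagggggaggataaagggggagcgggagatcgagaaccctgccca
Psat1: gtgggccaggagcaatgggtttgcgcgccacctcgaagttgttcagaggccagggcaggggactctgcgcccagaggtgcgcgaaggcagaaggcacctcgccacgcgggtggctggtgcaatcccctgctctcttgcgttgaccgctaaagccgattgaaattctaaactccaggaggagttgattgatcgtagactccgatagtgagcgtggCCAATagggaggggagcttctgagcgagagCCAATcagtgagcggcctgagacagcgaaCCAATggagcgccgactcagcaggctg
Psph: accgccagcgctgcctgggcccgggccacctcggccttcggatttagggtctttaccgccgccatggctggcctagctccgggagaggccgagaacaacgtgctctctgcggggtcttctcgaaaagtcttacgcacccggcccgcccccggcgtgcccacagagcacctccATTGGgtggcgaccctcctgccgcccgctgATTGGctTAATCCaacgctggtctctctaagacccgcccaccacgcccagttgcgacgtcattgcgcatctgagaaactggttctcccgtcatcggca
All 10 genes matched a window by symbol. CCAAT was found in 7 of the 10 windows and in 37.4% of 32851 promoter windows of the same length. The sets differ in composition, with a median GC of 59.0% and 15.5 CpG in the 10 windows against 52.7% and 7 over all. TAATCC was found in 1, that of Psph, and in 7.06% of all windows. TGATGNAA, the composite element bound by ATF4, was in 0 of the 10 and in 3.97% of all windows. These searches read letters on both strands, no 2 of the motifs overlap in the printed windows, and a match is a description, not a site in use.

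Library totals ranged from 13458890 to 22790074 reads on genes. The deposited values are normalised read counts scaled separately for rods and for retina, so values set across the fractions are recovered reads scaled by TMM (trimmed mean of M-values) over all 12 libraries, called scaled reads. Pkm, the targeted gene, had a log2 difference of -1.20 between Pkm2Rodko and control rods (standard error 0.0838, adjusted p = 5.36e-05) and of -0.65 in retina (standard error 0.0742, adjusted p = 0.0219), by limma with Benjamini-Hochberg adjustment. Its retina call was lost in 5 of the 6 fits that each left out 1 library. All 12 rod markers were higher in control rods than in control retina, by a median log2 difference of 1.91, and all 12 Müller markers were lower, by a median of -2.87.

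Serine synthesis was split between the fractions. Phgdh and Psat1 were 6.49-fold and 5.86-fold lower in control rods than in control retina, whereas Psph was 1.83-fold higher on the TMM scale. The same was found in the Pkm2Rodko libraries, with folds of 8.21 and 6.35 lower and 1.68 higher. Fold changes here are of log2(scaled reads + 1), so those of sparsely counted genes come out too small.

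Phgdh (ENSMUSG00000053398) encodes phosphoglycerate dehydrogenase, which takes 3-phosphoglycerate out of glycolysis. It had 21.3, 23.3 and 36.6 scaled reads in control rods and 172, 121 and 262 in control retina. In Pkm2Rodko mice it had 33.8, 13.6 and 16.1 in rods and 166, 211 and 135 in retina. Every rod library lay below every retina library, and the rod values rest on only 10 to 26 reads each. The log2 difference between rods and retina was -2.70 (standard error 0.349, adjusted p = 6.64e-06) in control and -3.04 (standard error 0.349, adjusted p = 1.65e-06) in Pkm2Rodko mice.

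Psat1 (ENSMUSG00000024640), which encodes the phosphoserine aminotransferase of the next step, followed Phgdh. It had 109.7, 95.8 and 143 scaled reads in control rods, against 732, 614 and 691 in control retina. The Pkm2Rodko libraries had 87.2, 78.8 and 97.6 in rods and 542, 538 and 605 in retina. The fractions did not overlap in either genotype, and the log2 differences were -2.55 (standard error 0.146, adjusted p = 7.88e-10) and -2.67 (adjusted p = 3.88e-10).

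Psph (ENSMUSG00000029446) encodes phosphoserine phosphatase, which releases serine, and went the other way on this scale. Its scaled reads were 416, 434 and 394 in control rods and 221, 240.2 and 218 in control retina. In Pkm2Rodko mice they were 393, 363 and 350.1 in rods and 220.0, 242 and 197 in retina. No retina library reached the rod values, with log2 differences of 0.87 (standard error 0.109, adjusted p = 4.70e-06) and 0.75 (adjusted p = 2.17e-05). Psph shares 452 of its 4329 exon bases with Cct6a on the opposite strand in GENCODE vM21, and whether strand was used in counting is not given in the sources used here.

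A ratio of reads within a library does not depend on scaling. There were 2.76 to 4.52 reads of Psph per read of Psat1 in control rods and 3.59 to 4.60 in Pkm2Rodko rods. In retina the same ratio was 0.302 to 0.391 in control and 0.325 to 0.450 in Pkm2Rodko libraries. Psph was thus the more counted of the pair in every rod library and Psat1 in every retina library. This ratio was chosen after the values were seen and is given with no test. The ratio of Phgdh to Psat1, by contrast, had a mean log2 of -2.11 ± 0.447 (SD, n = 6) in rods and -1.84 ± 0.420 (SD, n = 6) in retina, and its ranges of 0.169 to 0.393 and 0.197 to 0.394 overlapped. Its difference of -0.27 did not pass a two-sided exact permutation test of 6 against 6 libraries (p = 0.299).

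**Figure D1:**
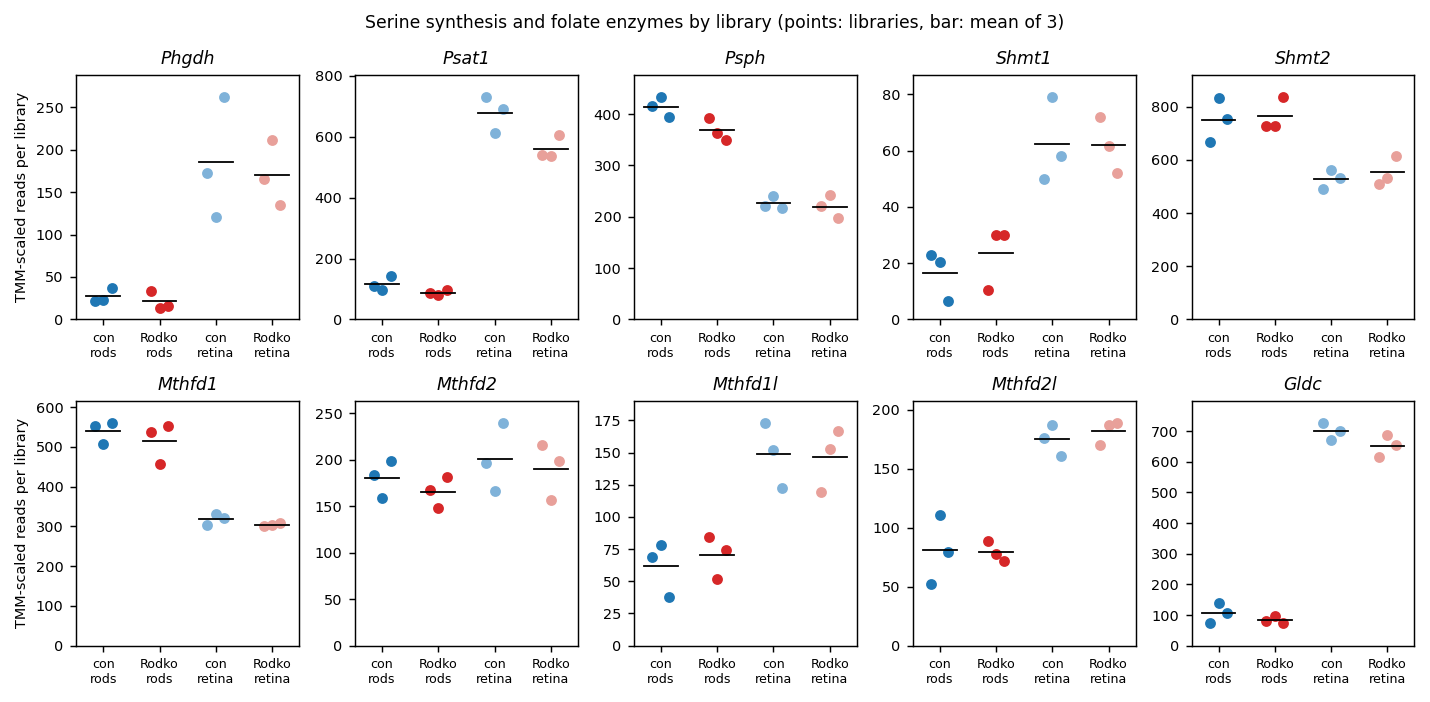
Scaled reads (TMM over all 12 libraries, linear axes from 0) of each enzyme in each library, with points for libraries and bars for the mean of 3. Phgdh, Psat1 and Gldc stand low in all 6 rod libraries and high in all 6 retina libraries, Psph, Shmt2 and Mthfd1 stand higher in rods on this scale (Shmt2 turned with total reads), and Mthfd2 overlaps.

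The paired hydroxymethyltransferases also differed. Shmt2 (ENSMUSG00000025403), the mitochondrial enzyme, was 1.41-fold higher in control rods than in control retina on the TMM scale, a direction that turned when libraries were scaled by total reads, whereas Shmt1 (ENSMUSG00000020534), the cytosolic enzyme, was 3.99-fold lower. Shmt2 had 666, 832 and 752 scaled reads in control rods and 490.5, 563 and 533 in control retina. In Pkm2Rodko libraries it had 727, 728 and 837 in rods and 510.4, 532 and 616 in retina. The fractions did not overlap within either genotype, and the log2 differences were 0.50 (standard error 0.107, adjusted p = 0.000831) and 0.47 (adjusted p = 0.00137).

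Shmt1 was sparsely counted in rods. It had 22.9, 20.5 and 6.36 scaled reads in control rods, from 4 to 22 reads, and 49.9, 79.2 and 58.0 in control retina. The Pkm2Rodko libraries had 10.4, 29.9 and 30.2 in rods and 72.2, 61.6 and 52.1 in retina. All rod libraries were lower, with log2 differences of -1.998 (standard error 0.457, adjusted p = 0.00142) and -1.49 (standard error 0.457, adjusted p = 0.0106). Without Pkm2Rodko rods replicate 1 the second was -1.03 with an adjusted p of 0.0581. It was the only enzyme with fewer than 10 reads in some library, and 184 of its 3883 exon bases are shared with Smcr8 on the opposite strand.

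Within a library, Shmt2 had 23.8 to 105 times the reads of Shmt1 in rods and 7.04 to 11.7 times in retina. The mean log2 ratio was 5.37 ± 0.845 (SD, n = 6) in rods and 3.13 ± 0.283 (SD, n = 6) in retina. The difference of 2.24 was past the exact permutation test (two-sided p = 0.00216, the smallest that 6 against 6 allow, and 0.00361 after Benjamini-Hochberg adjustment over 5 pairs of genes). This count of 6 takes the fractions of 1 sample number as separate libraries.

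Among the folate enzymes, Mthfd1 (ENSMUSG00000021048), the cytosolic enzyme that joins formate to folate and interconverts the products, was 1.69-fold higher in control rods on the TMM scale. It had 553, 508 and 559.7 scaled reads in control rods and 304, 330.2 and 322 in control retina. In Pkm2Rodko mice it had 536, 456 and 551 in rods and 301, 303 and 308 in retina. These groups were well apart, with log2 differences of 0.76 (standard error 0.0980, adjusted p = 6.61e-06) and 0.75 (adjusted p = 6.53e-06).

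Mthfd1l (ENSMUSG00000040675), which releases formate in mitochondria, was 2.48-fold lower in control rods. It had 68.8, 78.2 and 38.2 scaled reads in control rods against 173, 152 and 123 in control retina. The Pkm2Rodko values were 84.6, 51.6 and 74.4 in rods and 119, 153 and 167 in retina. The fractions did not overlap, and the log2 differences were -1.31 (standard error 0.263, adjusted p = 0.000490) and -1.06 (adjusted p = 0.00249). In reads of the same library, Mthfd1l was 0.0695 to 0.159 of Mthfd1 in rods and 0.381 to 0.569 of it in retina, a difference in mean log2 ratio of -1.95 (two-sided exact permutation test, p = 0.00216, adjusted p = 0.00361, n = 6 and 6).

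Mthfd2 (ENSMUSG00000005667) and Mthfd2l (ENSMUSG00000029376) encode related mitochondrial dehydrogenase and cyclohydrolase enzymes that act before MTHFD1L. Mthfd2 had 183, 159 and 199 scaled reads in control rods and 196, 166 and 239 in control retina, which overlap. Its log2 difference of -0.14 (95% interval -0.49 to 0.21, adjusted p = 0.473) was not past the threshold, nor was the -0.19 (-0.54 to 0.16, adjusted p = 0.334) of Pkm2Rodko mice. Mthfd2 was the only one of the 10 enzymes with no call between the fractions on the TMM scale.

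Mthfd2l had 52.4, 111 and 79.5 scaled reads in control rods and 176, 187 and 161 in control retina. In Pkm2Rodko mice it had 88.5, 77.4 and 71.4 in rods and 170.1, 187 and 189 in retina. Its highest rod library was below its lowest retina library, and the log2 differences were -1.16 (standard error 0.215, adjusted p = 0.000233) and -1.20 (adjusted p = 0.000173). The read ratio of Mthfd2 to Mthfd2l was 1.44 to 3.46 in rods and 0.838 to 1.49 in retina, a difference in mean log2 ratio of 1.02 (two-sided exact permutation test, p = 0.00433, adjusted p = 0.00541, n = 6 and 6).

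Gldc (ENSMUSG00000024827) encodes glycine decarboxylase, the P protein of the glycine cleavage system. It had 75.3, 140.5 and 108 scaled reads in control rods and 727, 672 and 700.4 in control retina. The Pkm2Rodko libraries had 80.7, 97.8 and 75.5 in rods and 615, 687 and 656 in retina. Gldc was 6.63-fold lower in control rods, with log2 differences of -2.73 (standard error 0.176, adjusted p = 2.84e-09) and -2.94 (adjusted p = 1.02e-09).

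The other proteins of glycine cleavage did not share the size of that difference. Amt, the aminomethyltransferase, had a log2 difference of -0.94 between control rods and retina, while Gcsh, the lipoyl carrier, had 0.59 and Dld, the lipoamide dehydrogenase used by several complexes, had 0.995. All 3 passed the test on the TMM scale, on which 23.5% of all genes were higher and 35.5% lower. With total reads, 1 of these partners was higher. In reads, Gldc was 0.295 to 0.622 of Amt in rods and 1.26 to 1.48 of Amt in retina. The mean log2 ratio differed by -1.80 (two-sided exact permutation test, p = 0.00216, adjusted p = 0.00361, n = 6 and 6).

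In all, 3 of the 10 enzymes were higher and 6 lower in control rods than in control retina on the TMM scale, of which Shmt2 turned with total reads. Over the 25584 genes tested, 23.5% were higher and 35.5% lower. The same 9 enzymes were called with the same direction in the Pkm2Rodko libraries, where 23.9% of genes were higher and 35.1% lower, and 51.4% of all genes were called in one direction in both genotypes. Libraries of the fractions did not overlap for these 9 enzymes, as for 61.8% of all genes in control and 63% in Pkm2Rodko mice. The median log2 difference was -1.24 for the enzymes and -0.37 for all genes in control mice, and -1.13 and -0.32 in Pkm2Rodko mice.

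The calls of higher levels depended on the scaling, and those of lower levels made on the TMM scale did not. Scaled by total reads, the log2 differences in control mice were 0.32 for Psph (adjusted p = 0.0234), 0.21 for Mthfd1 (adjusted p = 0.0764) and -0.05 for Shmt2 (adjusted p = 0.720), and the median of all genes moved to -0.76, with 2184 genes higher and 12706 lower. In Pkm2Rodko mice they were 0.16, 0.17 and -0.12 and none passed, while Mthfd2 became lower, at -0.69 in control and -0.77 in Pkm2Rodko mice. The enzymes lower on the TMM scale remained lower and past the threshold. In control mice, Psph lay 1.24 above the median of all genes tested on the TMM scale and 1.08 above with total reads. Mthfd1 lay 1.13 and 0.97 above it, and Shmt2 0.87 and 0.71 above. These distances depend on which genes enter the median. With at least 10 reads required in every library, the median in control mice was 0.24 instead of -0.37, so the distances were smaller.

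The Müller markers, Rlbp1, Glul, Slc1a3, Aqp4, Apoe, Sox9, Dkk3, Car14, Kcnj10, Vim, Clu and Abca8a, are set beside these values. Their log2 differences between control rods and retina ranged from -3.69 to -2.26, and those of Gldc, Phgdh and Psat1, at -2.73, -2.70 and -2.55, lay inside that range. The same 3 values also lay inside the ranges of the amacrine (-3.53 to -2.36), ganglion (-3.37 to -1.06), pigment epithelium (-3.18 to -1.82) and microglia (-3.70 to -2.44) markers, and inside the wider ranges of the bipolar, horizontal, endothelial and astrocyte markers, so the match is not particular to Müller markers. They lay outside those of the rod (1.57 to 2.11) and cone (-1.08 to 0.13) markers. Those of Shmt1, Mthfd1l and Mthfd2l, at -1.998, -1.31 and -1.16, lay above the Müller range. Summed over the 12 markers, scaled reads were 11725 to 14874 in control rods and 83994 to 96653 in control retina. None of the markers was at 0 in every library of a group. The part of RNA from Müller or other cells carried into the Rod-TRAP fraction in these values was not tested.

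**Figure D2:**
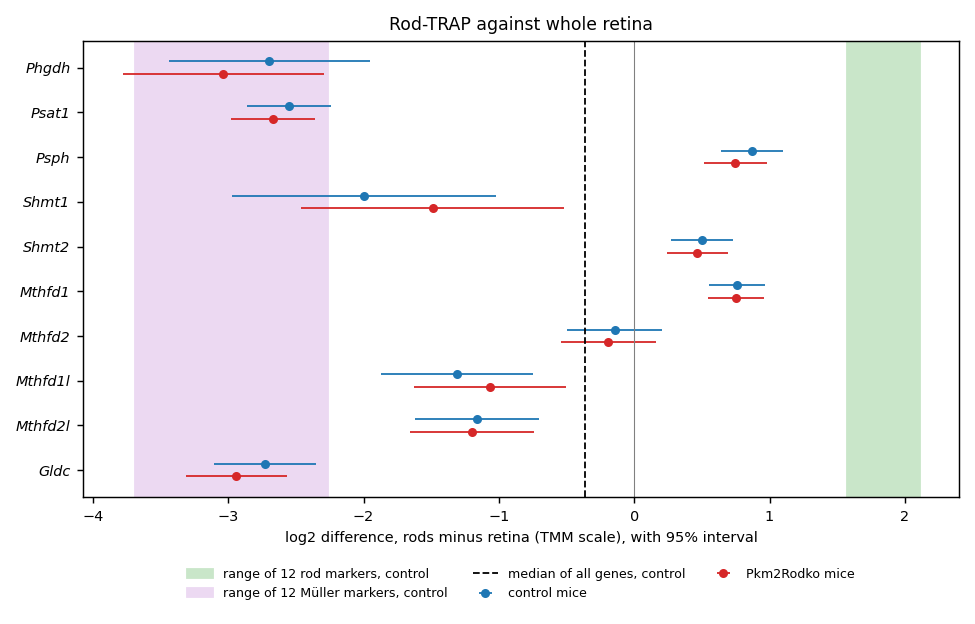
Log2 difference between rods and retina (TMM scale) of each enzyme with its 95% interval, in control (blue) and Pkm2Rodko (red) mice. Phgdh, Psat1 and Gldc fall in the range of the 12 Müller markers (-3.69 to -2.26), as they do in that of the amacrine (-3.53 to -2.36) and other non-rod markers not drawn, no enzyme reaches that of the 12 rod markers, and the dashed line is the median of all genes in control mice (-0.37).

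Per kilobase of annotated exon, the order of the levels differed between the fractions. In control rods Shmt2 was the highest, at 241 ± 26.6 (SD, n = 3) scaled reads per kilobase, followed by Mthfd1 at 122 ± 6.35, Psph at 95.8 ± 4.54 and Mthfd2 at 51.7 ± 5.73. These 4 did not overlap each other or Psat1, which was next at 27.3 ± 5.71. Gldc, Mthfd1l, Mthfd2l and Phgdh, from 17.7 down to 10.9, each overlapped their neighbour in the order, and Shmt1 was last at 4.27 ± 2.30.

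In control retina Shmt2, at 170.1 ± 11.7, and Psat1, at 159.5 ± 14.1 scaled reads per kilobase (SD, n = 3), overlapped at the top. Gldc followed at 115 ± 4.48. Phgdh, Mthfd1, Mthfd2 and Psph lay between 74.4 and 52.3 and each overlapped its neighbour, and Shmt1 was again last, at 16.1 ± 3.89. Psat1, Gldc and Phgdh thus ranked at 2 to 4 in retina but at 5, 6 and 9 in rods. The exon lengths are unions over all annotated transcripts, so they may exceed those of the transcripts present.

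**Figure D3:**
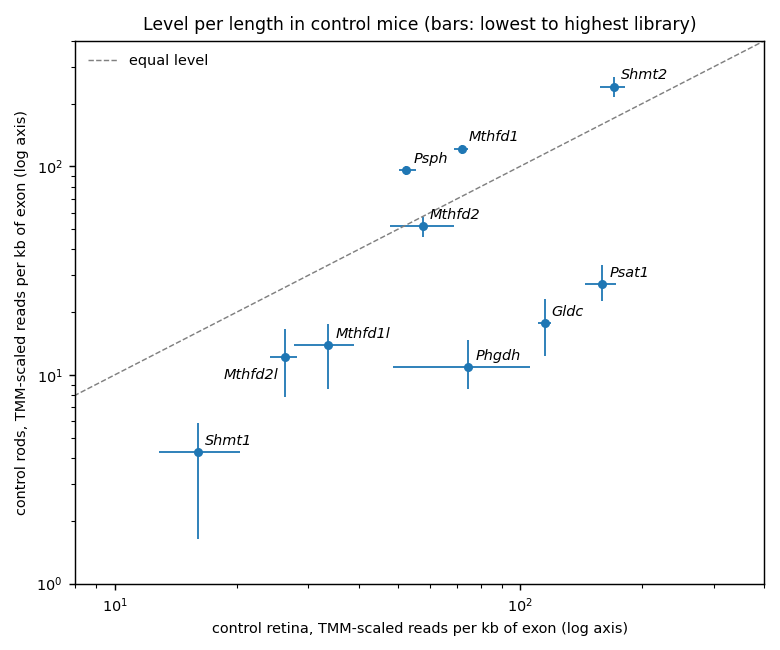
Mean TMM-scaled reads per kilobase of exon in control rods against control retina (log axes), with bars from the lowest to the highest of 3 libraries and a dashed line of equal level. Shmt2 (which turned with total reads), Mthfd1 and Psph lie above the line, Mthfd2 near it, and Psat1, Gldc and Phgdh farthest below it.

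Genes outside the 10 enzymes were read in lists of the same metabolism. Their counts in control rods stand beside the 23.5% of all genes that were higher and the 35.5% that were lower. Of 14 folate cycle and transport genes tested, 7 were higher and 4 lower. The highest were Mthfs (log2 difference 1.07), which recycles formyl folate, and Ggh (0.86), the gamma-glutamyl hydrolase. The lowest were Folr1 (-2.83), a folate receptor, and Aldh1l1 (-2.80), a cytosolic formyltetrahydrofolate dehydrogenase and a common glial marker.

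Of 10 genes of serine and glycine transport and use, 3 were higher and 5 lower. Sfxn1, the mitochondrial serine carrier, had the lowest value (-3.43, standard error 0.187), with 66.8 to 91.2 scaled reads in control rods and 727 to 956 in control retina. Sds, a serine dehydratase, followed at -1.93 from few reads, while Slc1a5 (0.65) and Slc38a2 (0.31), both amino acid transporters, were the highest.

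In the methionine cycle and transsulfuration, 5 of 10 genes tested were higher and 2 lower. Gnmt, a glycine methyltransferase, at 1.15 and Ahcy, the adenosylhomocysteinase, at 1.08 were the highest. Cbs, which condenses serine with homocysteine, at -1.92 and Ahcyl2 at -1.88 were the lower ones. Gnmt had a mean of 27.9 scaled reads in control retina and Cbs one of 10.8 in control rods. In Pkm2Rodko mice Gnmt was at 0.69 and was not called (adjusted p = 0.0618 from limma). Of 6 purine synthesis genes, 3 were higher, led by Gart (0.86) and Adsl (0.80), and 1, Atic (-0.49), was lower.

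Of Atf4 and 8 other targets of ATF4, the transcription factor that induces serine synthesis genes under amino acid stress, 4 were higher and 3 lower in control rods. Atf4 itself was at 1.07 and Trib3 at 0.89, whereas Chac1 was at -2.33 and Atf5 at -1.37. The median over these 9 was 0.12. With total reads, fewer genes of every list were higher in control rods: 1 of the folate list, 0 of serine and glycine transport and use, 2 of the methionine list, 1 of purine synthesis, 1 of the Atf4 list and 1 of the glycine cleavage partners.

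The loss of PKM2 was compared within each fraction to ask whether transcripts changed in rods or in the whole retina. In rods, 0 of the 10 enzymes passed the test. Of 20658 genes tested, 4 passed (0.0194%), all of them lower in Pkm2Rodko rods. At an unadjusted p under 0.05 there were 0 of 10 enzymes, against 4.77% of all genes, and edgeR and DESeq2 on recovered reads also called 0 of the enzymes. None of the 10 had groups that did not overlap, against 9.89% of all genes. The median log2 difference was -0.09 for the enzymes and 0.01 for all genes, with 6 of 10 below 0.

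The deposited values of the serine synthesis genes in rods were compared first. Phgdh had 16.7, 18.2 and 28.3 in control and 26.4, 10.7 and 12.7 in Pkm2Rodko rods, a log2 difference of -0.39 (95% interval -1.27 to 0.48). Psat1 had 85.9, 75.1 and 110.9 in control and 67.9, 62.2 and 76.8 in Pkm2Rodko rods, a log2 difference of -0.38 (-0.83 to 0.08). The groups overlapped for both genes, and their intervals include a fall by more than 0.8 as well as no change. For Psph the difference was -0.16 (-0.42 to 0.09).

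The interval was narrow for the well-counted enzymes of the folate cycle in rods. Shmt2 differed by 0.04 (-0.21 to 0.29), Mthfd1 by -0.07 (-0.32 to 0.19) and Mthfd2 by -0.11 (-0.46 to 0.24). It was wide for Shmt1, at 0.52 (-0.63 to 1.67), whose values were 17.9, 16.0 and 4.9 in control and 8.1, 23.6 and 23.8 in Pkm2Rodko rods. Mthfd1l differed by 0.22 (-0.43 to 0.88), Mthfd2l by 0.04 (-0.54 to 0.61) and Gldc by -0.30 (-0.83 to 0.23). Adjusted p-values of the 10 enzymes from limma lay between 0.932 and 0.990.

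In retina, 0 of the 10 enzymes passed the test, against 1 of 25590 genes (0.00391%), which was Pkm. Psat1 came nearest. Its deposited values were 857.2, 726.9 and 817.5 in control and 641.4, 639.4 and 730.6 in Pkm2Rodko retina, so that the highest Pkm2Rodko library lay just above the lowest control library. The log2 difference was -0.25 (standard error 0.0963, 95% interval -0.46 to -0.05), with a p of 0.0203 from limma before and 0.947 after adjustment over all genes. It was the only enzyme at an unadjusted p under 0.05, 1 of 10 against 4.18% of all genes.

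The other 9 enzymes differed in retina by -0.08 to 0.08. Gldc had 851.3, 796.1 and 828.6 in control and 727.9, 817.5 and 791.2 in Pkm2Rodko retina, a log2 difference of -0.08 (-0.27 to 0.10). Shmt2 differed by 0.08 (-0.15 to 0.30), Mthfd2l by 0.08 (-0.20 to 0.35) and Mthfd1 by -0.05 (-0.27 to 0.16). Phgdh, at -0.05, had an interval from -0.57 to 0.46.

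**Figure D4:**
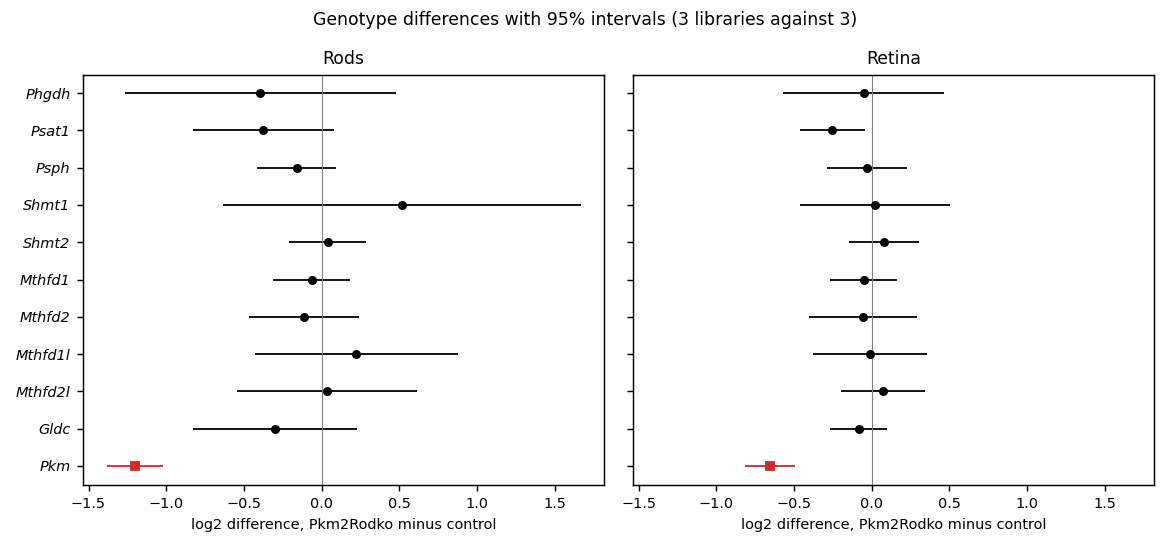
Log2 difference between Pkm2Rodko and control (log2 of deposited value + 1) with 95% intervals from limma, in rods and in retina, 3 libraries against 3. The 10 enzymes (black) spread around 0, from -0.39 to 0.52 in rods and from -0.25 to 0.08 in retina, and Pkm (red) is at -1.20 and -0.65.

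None of the 12 Müller markers passed the test between genotypes in rods or in retina. All 12 had log2 differences below 0 in rods (median -0.35), against 48.9% of all genes, and all 12 in retina (median -0.15), against 51% of all genes. Summed scaled reads were 11725 to 14874 in control and 9634 to 11430 in Pkm2Rodko rods, which do not overlap, and 83994 to 96653 in control and 77317 to 84018 in Pkm2Rodko retina, which just overlap. Gene by gene, the genotypes did not overlap for 2 of the 12 markers in rods, against 9.89% of all genes. In retina this held for 3 of the 12, against 9.29% of all genes. At an unadjusted p under 0.05 from limma there were 6 of the 12 in rods, against 4.77% of all genes. In retina there was 1 of the 12, against 4.18% of all genes. Medians in rods were also below 0 for the bipolar (-0.35), horizontal (-0.35), endothelial (-0.39), ganglion (-0.40), astrocyte (-0.43) and amacrine (-0.51) markers. The same held for the pigment epithelium (-0.17), cone (-0.11) and microglia (-0.09) markers. In all these lists 0 genes passed, while the median was 0.05 for the rod markers. The differences of Psat1, Phgdh and Gldc in rods were -0.38, -0.39 and -0.30. The part of RNA from these cell types in the values of Psat1, Phgdh and Gldc was not tested.

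The genotype difference itself was then compared between rods and retina. None of the 10 enzymes passed, as did none of 25584 genes (0%) by limma, with 4.41% of genes and 0 of 10 enzymes at an unadjusted p under 0.05. The differences ranged from -0.34 for Phgdh (95% interval -1.39 to 0.71) to 0.51 for Shmt1 (-0.87 to 1.88). edgeR on recovered reads also called 0 genes. The read ratios of the 5 pairs of genes did not separate the genotypes in either fraction (exact permutation tests, p from 0.3 to 1, where 3 against 3 cannot go below 0.1).

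No gene of the other pathway lists passed in a genotype comparison. Of the 9 genes of the Atf4 list, 8 were below 0 in Pkm2Rodko rods, against 48.9% of all genes, and 5 in retina. Of the 6 purine synthesis genes, 0 were below 0 in rods and 2 in retina. Asns, the asparagine synthetase, and Slc1a4, a transporter of serine and other neutral amino acids, had the lowest p-values of these lists in retina and were picked out after their values were seen. Asns had 890.3, 789.7 and 866.4 in control and 675.1, 628.5 and 697.5 in Pkm2Rodko retina, a log2 difference of -0.35 (adjusted p = 0.947 from limma). Slc1a4 had 481.2, 468.9 and 483.8 in control and 382.9, 376.2 and 370.5 in Pkm2Rodko retina, a log2 difference of -0.34 (adjusted p = 0.947 from limma). Both had an unadjusted p under 0.05, as did 4.18% of all genes. The groups of both did not overlap, which held for 9.29% of all genes. Aldh1l1 of the folate list shared these traits in retina, with a log2 difference of -0.31 (unadjusted p = 0.0312, adjusted p = 0.947 from limma).

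Phgdh varied more between retina libraries than the other enzymes. Its coefficient of variation was 38.8% in control retina, against 8.83% for Psat1 and 3.90% for Gldc. The summed pigment epithelium markers also varied, from 2179 to 20174 scaled reads in control retina and from 3817 to 12248 in Pkm2Rodko retina. Over the 6 retina libraries, Pearson's r between Phgdh and the sum was 0.938 (exact permutation p = 0.00833, adjusted p = 0.167) and Spearman's rho was 0.943 (exact permutation p = 0.0167, adjusted p = 0.333), adjusted over 20 relations of the 10 enzymes in the fractions. Without the 2 libraries farthest from the median sum, r was 0.931. Such trimmed values rest on few libraries and can be unstable. In retina the same trimming moved r from -0.417 to 0.922 for Mthfd1 and from 0.219 to 0.126 for Gldc.

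This relation was sought after the values were seen and did not pass the adjustment. In rods r was 0.528 (exact permutation p = 0.283, adjusted p = 0.688) and rho 0.600 (exact permutation p = 0.242, adjusted p = 0.765), and without the 2 farthest libraries r was 0.857. In retina r was 0.111 for Psat1 and 0.219 for Gldc. The order of the libraries by the sum was the same as by Phgdh within each genotype of the retina. None of the 10 pigment epithelium markers was at 0 in every library of a group. The part of pigment epithelium RNA in the Phgdh values was not tested.

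**Figure D5:**
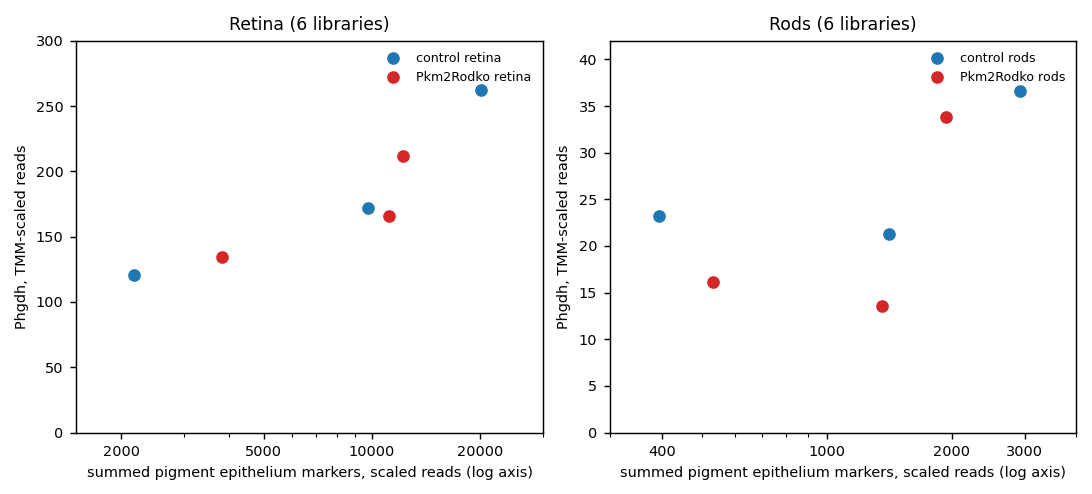
Phgdh (TMM-scaled reads) against the sum of 10 pigment epithelium markers (TMM-scaled reads, log axis) in the 6 retina and the 6 rod libraries, with control in blue and Pkm2Rodko in red. In retina the library with the largest sum, 20174, also has the most Phgdh, 262.

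The genes most like 4 of the enzymes over the 12 libraries were found by root mean square distance between centred log2 profiles, among 12918 genes with at least 10 reads in every library. Nearest to Phgdh were Pltp (distance 0.188), Penk (0.204) and Sorbs3 (0.224). Nearest to Gldc were Stat5b (0.117), Foxn3 (0.128) and Prickle2 (0.128). Nearest to Shmt2 were Irs2 (0.0662), Kbtbd7 (0.0789) and Zfp110 (0.0795), and nearest to Mthfd1 were Nup88 (0.0493), Smim36 (0.0576) and Hnrnph1 (0.0649). The distances are on the log2 scale and mostly reflect the difference between fractions.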

How the data were processed

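Polyribosome-bound and total retinal RNA was sequenced in 12 libraries. The submitters' processing notes name CASAVA 1.8.2, HISAT2, DESeq2, edgeR and the build GRCm39, with no roles. The annotation, the counter and its strand setting are not given in the sources used here. The authors deposited a signal for each gene in each library. It is a read count over a size factor (median of ratios, set within rods and within retina), rounded to 1 decimal. Whole reads were recovered for 99.9934% of positive values within that rounding. 0 columns were left unused.

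Genotypes were compared with limma 3.58.1 (variance trend, R 4.3.3) on log2(deposited value + 1), over genes with a mean of at least 1 in a genotype. The design allowed for raw counts, but the table holds scaled values, so edgeR 4.0.16 (4 genes in rods, 1 in retina) and DESeq2 1.42.0 on recovered reads were alternatives. Fractions were compared in 1 limma fit of the 4 groups on log2(TMM-scaled reads + 1), with Benjamini-Hochberg adjustment at 0.05. Tests were two-sided. Scripts were tested on simulated data. Exon lengths came from GENCODE vM21, for 96.3% of genes tested. Python 3.11.15 with scipy 1.17.1 ran the exact permutation tests, with 0.5 reads added to each count of a ratio.

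The members and lists were chosen with earlier results of these data known. Genes named are the 10 enzymes, Pkm, the 2 highest and 2 lowest called genes of each pathway list between control fractions, the list genes called between genotypes, the 3 nearest profiles of 4 enzymes, and Müller and rod markers. No pair of replicates agreed within sampling noise (chi-square per gene of at least 8.39). Deviations of same-numbered control and Pkm2Rodko libraries correlated at -0.24 to 0.11, so those numbers do not pair them. Rods and retina libraries with the same number and genotype correlated at 0.16 to 0.40 in all 6 pairs and were treated as pairs in an alternative with the number as a block.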

Additional observations from a re-analysis of the deposited data

How the results depend on the processing

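The 9 enzymes called between rods and retina kept their direction and call with RLE scaling, edgeR, a pseudocount of 0.1, no filter and the replicate block. With a minimum of 10 reads in every library, Shmt1 was not tested and the genes lower fell to 3614 in control and 3586 in Pkm2Rodko mice, while the median of all genes was 0.24 and 0.26. With total reads the genes higher numbered 2184 and 2198 and the enzymes higher 1 and 0. With the deposited values the genes higher numbered 1942 and 2076 and the enzymes higher 1 and 0. Shmt2 then turned to -0.050 and -0.12 (total reads) and -0.095 and -0.14 (deposited values).

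No enzyme passed between genotypes under any alternative run. The genes called in rods numbered 17 in 1 fit of all 12 libraries, 8 with the replicate block and 2 to 6 with a library left out. In retina they numbered 0 with the replicate block, 0 with a minimum of 10 reads, and 0 to 4 with a library left out. Mthfd2l in rods turned to -0.0468 with edgeR and -0.0471 with DESeq2, and Shmt1 in retina to -0.00043 with edgeR. The block changed no call of an enzyme.

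Small genotype differences changed sign with a library left out. In rods Shmt1 ranged from -0.018 to 0.997, Shmt2 from -0.042 to 0.12, Mthfd1 from -0.12 to 0.015, Mthfd1l from -0.088 to 0.43 and Mthfd2l from -0.24 to 0.29. In retina Phgdh ranged from -0.32 to 0.24, Psph from -0.099 to 0.038, Shmt1 from -0.13 to 0.21, Shmt2 from -0.010 to 0.14, Mthfd2 from -0.18 to 0.080 and Mthfd1l from -0.14 to 0.13. The rod values of Phgdh and Shmt1 rest on 4 to 30 reads, which limits what could be detected.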
